A study of Mus musculus with 18 samples.

Results

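The genes described are 46 markers of dividing cells, 18 that act in S phase and 28 that act in mitosis, taken by symbol from a fixed list that applies no threshold to values measured here but was drawn up with earlier results of these data known. All 46 were present in both deposited tables, among 17267 gene symbols in either table, and all 46 passed the filter on low counts in both fits. Poly(A) RNA was sequenced from wildtype (WT) mouse primary preadipocytes, the precursors of fat cells, in 18 libraries that formed 6 groups of 3 replicates. Undifferentiated preadipocytes came from the epididymal white fat of mice on a control diet (CD) and were kept as mock, given TGF-b1, or given TGF-b1 and SB431542, a small molecule that blocks the kinase of the type I TGF-b receptor. A further mock group came from the same depot of mice fed a high-fat diet (HFD). For the last 2 groups, preadipocytes were sorted with an antibody against CD49e, the surface integrin encoded by Itga5, into Itga5-High and Itga5-Low cells and then taken through adipogenic differentiation. Their diet, the doses, the treatment times and the age of the mice are not given in the labels.

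Cells that divide copy their DNA once in S phase and share out the copies in mitosis, and each step uses proteins that a resting cell makes little of. Genes of S phase are switched on by E2F factors once cyclin-dependent kinases release them from pocket proteins such as Rb. Genes of mitosis are kept low in resting cells by the DREAM complex and are raised later by the MuvB complex with Mybl2 (B-Myb) and Foxm1, through promoter elements named CHR and the CCAAT box, the latter bound by NF-Y. In fat tissue, preadipocytes divide to expand their pool, cultured preadipocytes can divide again when differentiation begins, and mature adipocytes do not divide.

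The promoter sequences of these genes were searched for the E2F motif, the CHR and the CCAAT box. RefSeq promoter windows of 300 bases (build GRCm38.p6, from 250 before to 50 after the transcript start) were matched by symbol for 38 of the 46 genes, which had 41 windows. The E2F motif was searched as TTTGGCGC, TTTCGCGC, TTTCCCGC or TTTGCCGC, the CHR as TTTGAA or TTCGAA, and the CCAAT box as CCAAT, each on both strands, and E2F matches that overlap each other were counted separately. E2F matches stood in 6 of 16 windows of S-phase genes (37.5%), in 1 of 25 windows of mitotic genes (4%) and in 2.26% of all 32851 windows. The 6 S-phase windows were all of helicase and loading genes, Cdc6, Cdt1, Mcm3, Mcm5, Mcm6 and Mcm7. Windows of other S-phase genes, such as Pcna, Rrm1, Rrm2 and E2f8, had no E2F match. Nor had the window of E2f1, which lay inside the gene, as described below. CHR matches stood in 20 of 25 windows of mitotic genes (80%), in 3 of 16 of S-phase genes (18.8%) and in 19.2% of all windows. A CCAAT box was found in 21 of 25 windows of mitotic genes (84%), in 10 of 16 of S-phase genes (62.5%) and in 37.4% of all windows. Both elements together were present in 19 of the 25 mitotic windows (76%), against 18.8% of S-phase windows and 7.52% of all. Counted by gene, 18 of 23 mitotic genes held a CHR and 17 held both elements. These are matches of letters, not measured binding.

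Windows of 30 bases around single E2F matches of the genes for the replication helicase and its loading are printed below with the match in capitals, 5′ to 3′ on the strand of the gene; a match that reads in the other direction appears as its reverse complement. The Cdc6 match lies upstream of the RefSeq start used here but inside the deposited span of the gene, which begins at 98907801.
Mcm3, chr1:20820275-20820304, minus strand, from base 20 after the start: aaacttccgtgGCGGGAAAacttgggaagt
Mcm5, chr8:75109349-75109378, plus strand, from base -149: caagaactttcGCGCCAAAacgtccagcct
Mcm6, chr1:128359734-128359763, minus strand, from base -47: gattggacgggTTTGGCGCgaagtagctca
Mcm7, chr5:138171849-138171878, minus strand, from base 17: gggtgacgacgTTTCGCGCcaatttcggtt
Cdt1, chr8:122568035-122568064, plus strand, from base 33: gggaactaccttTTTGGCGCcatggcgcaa
Cdc6, chr11:98908002-98908031, plus strand, from base -138: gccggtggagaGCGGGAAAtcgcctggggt

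CHR matches of mitotic genes lay close to the start given by RefSeq, with 20 of 30 matches beginning within 50 bases of it. Matches of Ect2 and Prc1 recur at a constant shift, such as Ect2 at -138 and -114 and Prc1 at -30 and -5. These sites appear to be counted in each of several overlapping windows, so distinct sites are fewer. That start was also found in a GENCODE transcript of the same gene for 28 of the 41 windows, and positions in the remaining windows rest on RefSeq alone. The following windows of 30 bases, with the CHR in capitals, belong to mitotic genes from 4 roles, which also held a CCAAT box each.
Plk1, chr7:122159453-122159482, plus strand, from base 31: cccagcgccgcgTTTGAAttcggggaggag
Cdk1, chr10:69352910-69352939, minus strand, from base -15: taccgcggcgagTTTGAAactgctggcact
Ccnb2, chr9:70421533-70421562, minus strand, from base 5: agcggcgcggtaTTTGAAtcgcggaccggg
Cdc20, chr4:118437344-118437373, minus strand, from base -18: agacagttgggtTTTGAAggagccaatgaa
Ube2c, chr2:164769888-164769917, plus strand, from base -29: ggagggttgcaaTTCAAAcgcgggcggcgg
Cenpf, chr1:189688067-189688096, minus strand, from base 3: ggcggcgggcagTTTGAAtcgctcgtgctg
Kif23, chr9:61946780-61946809, minus strand, from base 3: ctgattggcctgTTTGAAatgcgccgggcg
Racgap1, chr15:99651634-99651663, minus strand, from base 6: ctggtgcgtgatTTTGAAccggatctggcg

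The 250 bases before the start of Ccnb2 and of Mcm5 show both arrangements at length, with E2F, CHR and CCAAT matches in capitals. In Ccnb2, CHR is at -167 and CCAAT boxes are at -87, -54 and -21, ahead of the CHR at 5 printed above. In Mcm5, overlapping E2F matches begin at -153 and -149 and CCAAT boxes at -77 and -22. Plk1 and E2f1 had also been chosen for printing at length and did not show these arrangements. Upstream of Plk1 stood only a CCAAT box at -14, and the E2f1 window had no match. That E2f1 window, chr2:154569427-154569676 on the minus strand, lay inside the deposited span of the gene, which reaches 154569893. Bases before that outer end of E2f1 were therefore not searched.
Ccnb2, chr9:70421555-70421804, minus strand: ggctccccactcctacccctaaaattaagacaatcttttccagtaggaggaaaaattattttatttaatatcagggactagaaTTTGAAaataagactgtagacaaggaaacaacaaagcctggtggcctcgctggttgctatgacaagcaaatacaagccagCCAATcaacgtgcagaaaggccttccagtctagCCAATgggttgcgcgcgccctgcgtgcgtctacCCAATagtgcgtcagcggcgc
Mcm5, chr8:75109259-75109508, plus strand: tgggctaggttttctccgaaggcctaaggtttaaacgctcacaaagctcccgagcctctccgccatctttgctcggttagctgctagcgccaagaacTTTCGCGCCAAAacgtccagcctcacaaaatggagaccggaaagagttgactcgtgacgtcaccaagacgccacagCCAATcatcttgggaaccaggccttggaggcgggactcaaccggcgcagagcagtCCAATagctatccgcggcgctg

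**Figure D1:**
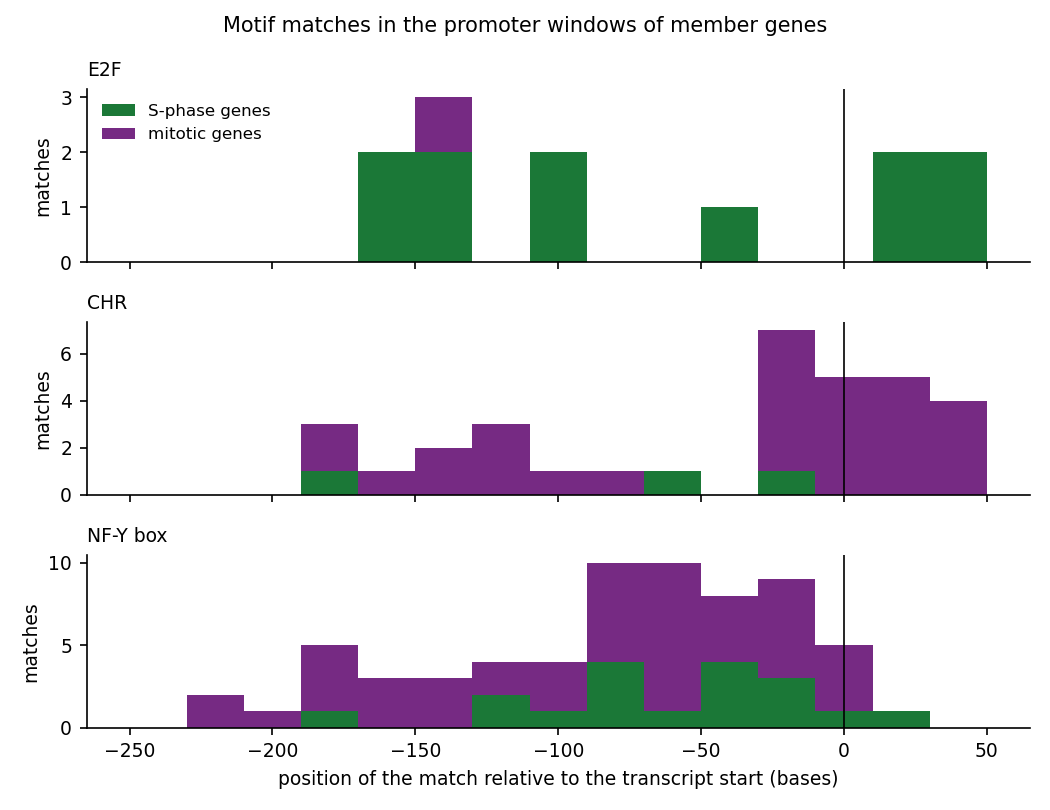
Number of matches (y axis) of the E2F motif, the CHR and the NF-Y (CCAAT) box by position relative to the transcript start in bases (x axis, bins of 20 bases), with S-phase genes in green and mitotic genes in purple stacked on them. CHR matches of mitotic genes gather around the start, 20 of 30 of them within 50 bases, and 11 of the 12 E2F matches belong to S-phase genes. Sites of Ect2 and Prc1 appear more than once, from overlapping windows.

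Levels are given in CPM, the usual unit of counts scaled to library size, with TMM factors estimated within a table. Library totals ranged from 11154426 to 17288580 counts, and the genes described had 65 to 4955 counts in a library. The labels do not say that replicates came from separate mice or cultures, and the counts of replicates varied only 1.15 to 1.25 times as much as sampling alone gives (chi-square over its degrees of freedom, 18 pairs), so the spread behind the p-values is that between libraries and may be technical. Calls of a gene as higher or lower rest on edgeR's quasi-likelihood test at a Benjamini-Hochberg adjusted p under 0.05 over all genes tested, whatever the fold. All 12 preadipocyte and fibroblast markers passed the filter in both fits and none was at 0, and lymphocyte markers were at or near 0 in every group.

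Per kilobase of the most abundant transcript, the highest levels in CD mock were those of Pcna, the sliding clamp of DNA polymerases, at 117 CPM per kb and of Rrm1, the large subunit of ribonucleotide reductase, at 74.0 CPM per kb. Ube2c, the ubiquitin-conjugating enzyme of the anaphase-promoting complex, was at 63.6 and Rrm2, the small reductase subunit, at 63.5 CPM per kb. At the low end stood the helicase loader Cdc6 at 4.16, the cyclin Ccne2 at 4.67 and the kinetochore protein Cenpf at 5.31 CPM per kb. All 46 genes were also detected in every library after differentiation, where the lowest levels in Itga5-Low were 1.32 CPM per kb for Cdc6 and 1.48 for Ccne2.

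Set side by side as plain CPM of each column's total, the summed level of the 28 mitotic genes averaged 2442 in CD mock, 1971 with TGF-b1, 2206 with TGF-b1 and SB431542 and 2436 in HFD mock. After differentiation it averaged 2087 in Itga5-High and 969 in Itga5-Low. The 18 S-phase genes summed to 1425, 1246, 1424 and 1447 in the 4 undifferentiated groups in the same order, to 1167 in the Itga5-High and to 746 in the Itga5-Low cells. Differentiated Itga5-High cells therefore lay within the range of undifferentiated groups for mitotic genes and below it for S-phase genes, while Itga5-Low cells lay below it for both. The order of the undifferentiated groups depends on scaling. With TMM factors the mitotic sums averaged 2392 in CD mock, 2140 with TGF-b1, 2004 with SB431542 added and 2528 in HFD mock. The S-phase sums were then 1396, 1353, 1294 and 1502 in the same order. Single genes departed from the plain sums. Rrm2 was at 242 ± 5.1 CPM of the column total in Itga5-High, above its 141 to 166 CPM in CD mock and TGF-b1, and Tk1 at 48.6 ± 0.94 against 32.2 ± 4 CPM in CD mock (SD, n = 3). Rrm1, at 182 ± 2 against 302 ± 8.7 CPM, Anln, at 87.8 ± 1.2 against 182 ± 0.18 CPM, and Ect2, at 23.2 ± 0.59 against 59.5 ± 2.2 CPM, were well under their CD mock levels. The tables were filtered separately and hold different libraries, so no test was made between them. In bulk RNA, fewer dividing cells and less of these RNAs per cell cannot be told apart.

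**Figure D2:**
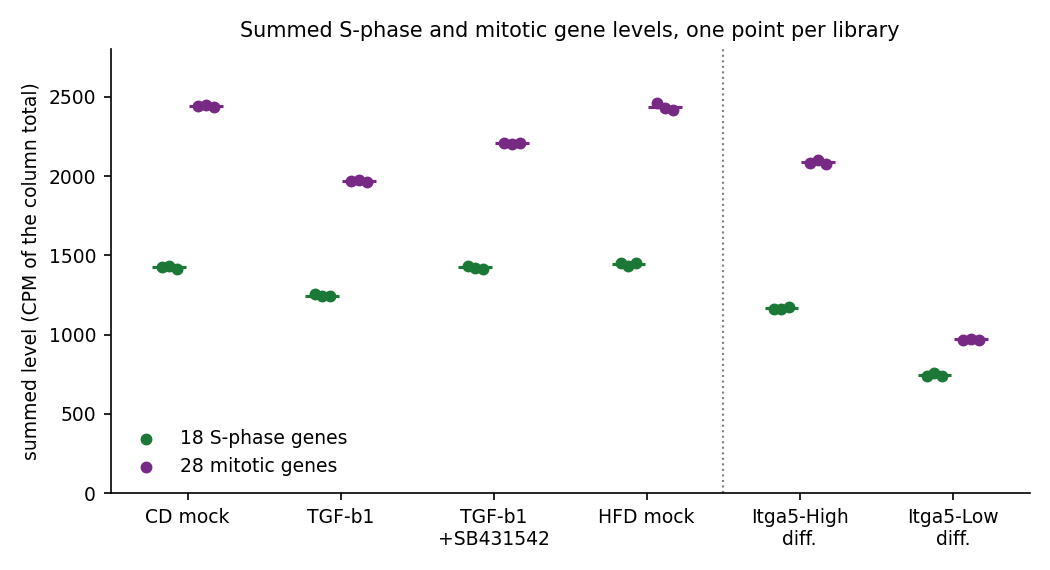
Summed level of the 18 S-phase genes (green) and the 28 mitotic genes (purple) in CPM of the column total (y axis), with 1 point per library and a line at the mean of each of the 6 groups (x axis); the dotted line separates the tables of undifferentiated and differentiated (diff.) cells. Itga5-Low stands lowest for both lists, at means of 746 and 969 CPM. The order of the undifferentiated groups differs under TMM scaling.

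After differentiation, all 46 genes were higher in cells that had been sorted as Itga5-High than in Itga5-Low cells. All 18 S-phase genes and all 28 mitotic genes were called higher, where 27.0% of the 13468 genes tested were called higher and 26.5% lower. In each of the 46 genes every Itga5-High library lay above every Itga5-Low library, which held for 29.2% of all genes tested. The median log2 change was 0.77 over the S-phase genes and 1.15 over the mitotic genes, against a median of -0.0033 and a median absolute change of 0.19 over all genes. A change of at least 2-fold was reached by 25 of 28 mitotic genes and by 2 of 18 S-phase genes, Tk1 and Cdt1, against 2.03% of all genes. The 3 mitotic genes under 2-fold were Racgap1, Anln and Ect2, all of which act in cytokinesis. In TMM-scaled CPM the ratio of the mitotic to the S-phase sum was 1.77 to 1.81 in the Itga5-High libraries and 1.29 to 1.31 in the Itga5-Low libraries, without overlap.

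**Figure D3:**
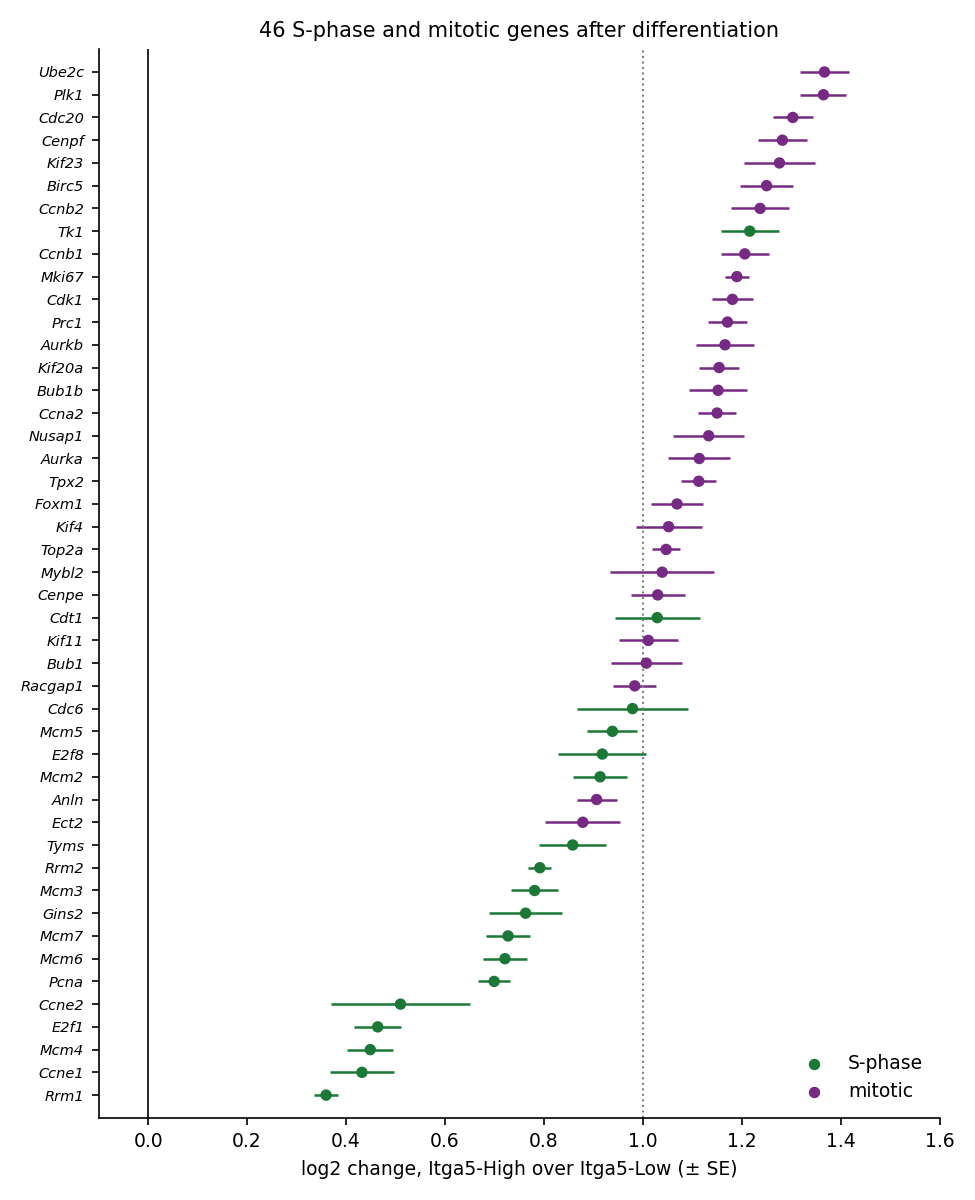
Log2 change of each of the 46 genes in Itga5-High over Itga5-Low cells after differentiation (x axis, bars: SE of the edgeR fit), ordered by size, with S-phase genes in green and mitotic genes in purple; the dotted line marks a 2-fold change. All 46 points lie right of 0, from 0.36 for Rrm1 to 1.37 for Ube2c, and the mitotic genes hold most of the upper end.

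Among the genes that build and load the replication helicase, Cdt1, which with Cdc6 brings the Mcm2 to Mcm7 ring onto DNA, was at 19.9, 23.5 and 24.6 CPM in Itga5-High and 10.5, 10.6 and 11.8 CPM in Itga5-Low. The lowest Itga5-High library was well above the highest Itga5-Low library, and the log2 change was 1.03 ± 0.086 (SE) with an adjusted p of 5.13e-12. The ring subunit Mcm4 changed least of this role, at 57.4, 57.1 and 56.9 against 39.99, 41.7 and 43.95 CPM, a log2 change of 0.45 ± 0.047 (SE) (adjusted p = 1.15e-10). Between them lay Cdc6 at 0.98, Mcm5 at 0.94, Mcm2 at 0.91, Mcm3 at 0.78, Gins2, a subunit of the active helicase, at 0.76, Mcm7 at 0.73 and Mcm6 at 0.72. The 6 subunits of 1 ring thus covered a range of log2 changes from 0.45 to 0.94.

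Genes for nucleotide supply held both the largest and the smallest change of the S-phase genes. Tk1, the thymidine kinase of S phase, was at 48.9, 50.5 and 48.7 CPM in Itga5-High and 21.2, 20.01 and 22.6 CPM in Itga5-Low, 2.32-fold higher (log2 1.22 ± 0.058 (SE), adjusted p = 1.9e-19). Rrm1 was at 186, 182 and 186 against 143, 148 and 140.5 CPM, 1.28-fold higher (log2 0.36 ± 0.025 (SE), adjusted p = 2.4e-13). Its partner subunit Rrm2 had a log2 change of 0.79, Tyms, the thymidylate synthase, 0.86, and Pcna 0.70. Of the genes for cyclin E and E2F factors, E2f8, a repressor of E2F targets, was at 17.2, 17.4 and 17.8 against 8.67, 9.92 and 9.04 CPM, a log2 change of 0.92 ± 0.089 (SE). Ccne1, which with Cdk2 starts S phase, was at 28.2, 29.1 and 27.6 against 20.4, 20.8 and 21.6 CPM, a log2 change of 0.43 ± 0.065 (SE). E2f1, an activator, and Ccne2 changed by 0.46 and 0.51. These groups did not overlap either, but Ccne2 was low, at 6.32 ± 0.87 against 4.49 ± 0.38 CPM (SD, n = 3), and without Itga5-High replicate 1 its log2 change was 0.40 and no longer called.

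The mitotic genes rose within a narrow span of log2 changes, 0.88 to 1.37. Plk1, a kinase of mitotic entry and spindle assembly, was at 85.95, 81.96 and 83 CPM in the Itga5-High libraries and 31.3, 31.9 and 34.4 CPM in the Itga5-Low libraries, 2.58-fold higher (adjusted p = 1.3e-23). Aurka, the spindle pole kinase, changed least of the 7 mitotic cyclins and kinases, at 39.03, 41.3 and 38.7 against 18.8, 17.9 and 18.3 CPM, still 2.16-fold higher. The cyclins that drive Cdk1 had log2 changes of 1.15 (Ccna2), 1.21 (Ccnb1) and 1.24 (Ccnb2), Cdk1 itself 1.18, and Aurkb, the kinase of the chromosomal passenger complex, 1.17. Ube2c was at 75.8, 76.99 and 71.2 against 28.9, 30.6 and 27.3 CPM and had the largest change of all 46 genes, log2 1.37 ± 0.05 (SE) (adjusted p = 1.45e-22). In the same role, the anaphase activator Cdc20 changed by 1.303, the checkpoint kinases Bub1b by 1.15 and Bub1 by 1.01, the last from 14.6, 14.1 and 13.7 to 28.1, 27.7 and 29.2 CPM.

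Chromosome and kinetochore genes changed from 1.03 to 1.28 on the log2 scale. Cenpf was at 65.9, 66.5 and 65.6 against 26.99, 26.7 and 27.7 CPM (adjusted p = 2.12e-22), and Cenpe, the kinetochore motor, at 53.3, 49.6 and 55.3 against 26.7, 25.8 and 25.01 CPM (adjusted p = 4.97e-18). Mki67, the Ki-67 protein that coats mitotic chromosomes, changed by 1.19, the DNA topoisomerase Top2a by 1.05 and Birc5 (survivin) by 1.25. Of the spindle genes, Nusap1, which bundles microtubules, was at 33.3, 31.8 and 33.4 against 14.7, 13.7 and 16.6 CPM and the motor Kif11 at 42.5, 43.5 and 45.5 against 22.7, 20.5 and 21.97 CPM, log2 changes of 1.13 and 1.01. Groups were again apart for each of these genes, and Tpx2 and Kif4 changed by 1.11 and 1.05.

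Cytokinesis genes gave the widest range among the mitotic roles. Kif23, the motor of the centralspindlin complex, was at 33.8, 35.5 and 37.4 against 14.2, 13.5 and 16.2 CPM, a log2 change of 1.28 ± 0.072 (SE), whereas its partner Racgap1 changed by 0.98. Ect2, which centralspindlin recruits to the dividing cell's middle, was at 24.1, 23.7 and 22.9 against 12.3, 12.8 and 13.4 CPM, 0.88 ± 0.076 (SE), the smallest change of the mitotic genes. With only its most abundant transcript counted, which held 40.0% of the Ect2 counts, the change was 0.82 and not called. Prc1 changed by 1.17, Kif20a by 1.15 and the scaffold Anln by 0.91. Foxm1 and Mybl2, the transcription factors that raise mitotic genes, were at 56.4, 59.3 and 55.1 and 16.1, 14.9 and 12.2 CPM against 27.8, 27.4 and 26.2 and 7.37, 6.67 and 7.22 CPM, with log2 changes of 1.07 and 1.04. The 17 mitotic genes with both a CHR and a CCAAT match in their promoter windows had a median log2 change of 1.17 (0.88 to 1.37), and the 6 with a window but not both had 1.09 (0.91 to 1.25), ranges that overlap. The counts of called genes were the same under scaling by total counts and by DESeq2 size factors.

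Other genes of the same processes, from lists that share no gene with the 46, were counted in the same fit. In that fit, 27.0% of all genes tested were called higher and 26.5% lower. Of 60 further mitotic genes, all 60 were called higher in Itga5-High, with a median log2 change of 1.002, and 30 of them at least 2-fold. Cdca3, a regulator of mitotic entry, led them, at 46.05 ± 0.7 against 19.2 ± 0.17 CPM (SD, n = 3; log2 1.26). Of 50 further DNA replication genes, 44 were called higher and 2 lower with a median of 0.70, the largest change being that of the exonuclease Exo1 (log2 1.08) and the lowest that of the origin subunit Orc4 (log2 -0.18). Of 16 genes for E2F, pocket and DREAM or MuvB proteins, 7 were called higher and 3 lower, from E2f7, a repressor like E2f8, at 1.02 to the pocket protein gene Rbl2 at -0.40. Of 14 genes for G1 cyclins, their kinases and CDK inhibitors, 8 were called higher and 5 lower. Ccnd1, cyclin D1, was at 137 ± 0.79 against 115 ± 1.8 CPM (log2 0.25). Among the inhibitors, Cdkn2d changed by 0.85, while Cdkn2b changed by -0.52, Cdkn2a by -0.52, Cdkn1b by -0.14 and Cdkn1a by -0.05.

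Markers of other cell types moved with this comparison as well. Adipocyte markers summed to 6962 to 6981 CPM of the column total in the Itga5-High libraries and to 7930 to 7968 in those of Itga5-Low, with 7 of the 9 tested called lower, none higher, and Lep at 0 in both. Macrophage markers summed to 43.2 to 44.3 CPM against 22.96 to 23.59, with 4 of 12 passing the filter and the defining genes Ptprc and Fcgr1 at 0 in both. Mesothelial markers summed to 99.2 to 102.6 CPM against 42.7 to 45.9, with 2 of 10 passing the filter and Msln, Krt8, Krt18 and Muc16 at 0 in both. Endothelial markers went the other way, summing to 25.55 to 26.88 CPM against 29.06 to 30.34. Of these, 7 of 9 passed the filter, with 1 called higher and 2 lower. Preadipocyte and fibroblast markers summed to 40810 to 41220 CPM against 37020 to 37210, with 3 of 12 called higher and 7 lower, and pericyte markers to 100.4 to 105.5 against 97.13 to 110 CPM, with overlap. The part of these markers in the changes of the 46 genes was not tested. Itga5 itself, the sorting marker, was at 464.7 ± 8.79 CPM in Itga5-High and 333.9 ± 4.80 CPM in Itga5-Low (SD, n = 3).

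In undifferentiated cells the same genes changed in both directions, and no gene of the 46 changed 2-fold in any of the 4 comparisons. With TGF-b1 against mock, 4 S-phase genes were called higher and 9 lower, and 2 mitotic genes higher and 15 lower, where 33.4% of the 14078 genes tested were called higher and 34.2% lower. The genes called lower made up 50% of the S-phase and 53.6% of the mitotic genes. Median log2 changes were -0.06 for S-phase and -0.12 for mitotic genes. These splits depend on scaling. Scaling by total counts put the median of all genes at -0.16 in this comparison, against -0.02 under TMM. It gave 2 S-phase genes higher and 12 lower, and 2 mitotic genes higher and 23 lower. The calls of Rrm2, Tyms, Aurka and Cenpe as higher, and of 9 S-phase and 15 mitotic genes as lower, were made under TMM, total counts and DESeq2 size factors alike. Total counts shifted log2 changes downward here, so the calls of lower genes were hardly put at risk by that scaling.

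**Figure D4:**
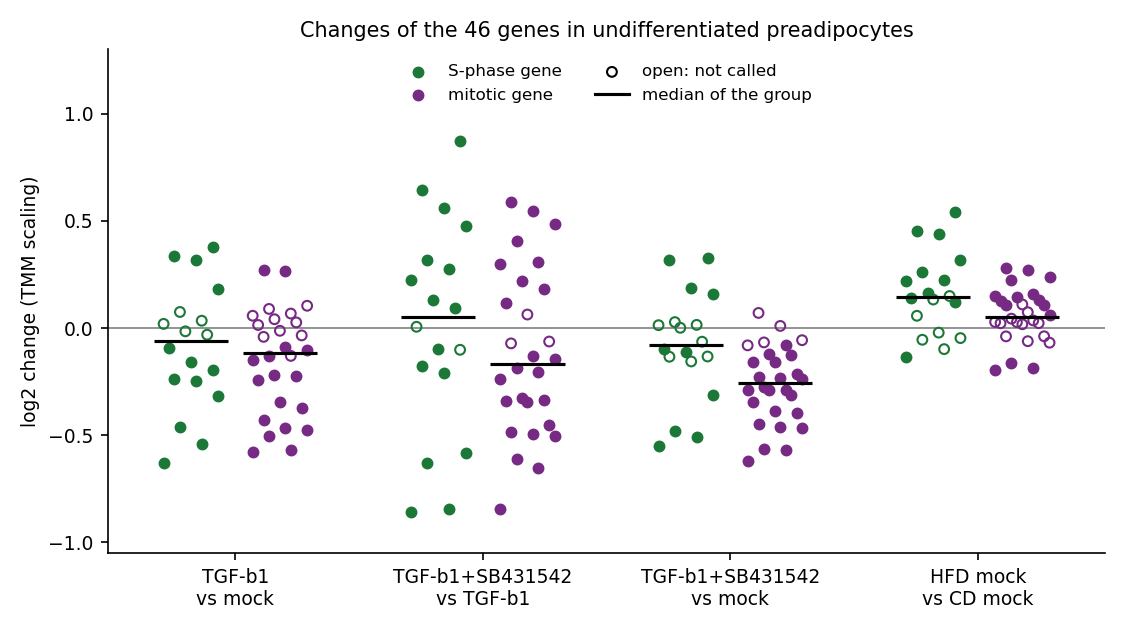
Log2 change under TMM scaling (y axis) of the 18 S-phase genes (green) and 28 mitotic genes (purple) in the 4 comparisons of undifferentiated cells (x axis), with 1 point per gene, open where the gene was not called, and a line at the median of each list. The points spread to both sides of 0 in all 4, from -0.86 to 0.87, and comparisons that share libraries are not independent.

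Of the 9 helicase and loading genes, 6 were called lower with TGF-b1 and none higher, from Mcm3, at 85.2, 83.7 and 85.3 CPM with TGF-b1 and 88.8, 92.5 and 89.7 CPM in mock (log2 -0.09, adjusted p = 0.0148), to Cdt1, at 31.98, 28.02 and 32.3 against 45.1, 41.1 and 41.98 CPM (log2 -0.46 ± 0.061 (SE), adjusted p = 3.09e-09). The Mcm3 call was lost without TGF-b1 replicate 2 or without mock replicate 2, with a log2 change of -0.08 or -0.07, and in the DESeq2 Wald test (-0.09). Mcm4, Mcm5, Mcm6 and Mcm7 were also called lower, with log2 changes of -0.19, -0.25, -0.16 and -0.32, and Mcm2, Cdc6 and Gins2 were not called, at -0.02, -0.03 and 0.02.

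Nucleotide supply was split between its enzymes. Rrm2 was at 178, 183 and 178 CPM with TGF-b1 against 138, 139 and 138 CPM in mock, 1.3-fold higher (log2 0.38 ± 0.028 (SE), adjusted p = 1.14e-15), and Tyms rose by 0.32. Tk1, in contrast, was at 20.9, 24.7 and 20.2 against 30.9, 35.7 and 27.9 CPM, 1.46-fold lower (log2 -0.54 ± 0.076 (SE), adjusted p = 3.31e-08), and Pcna changed by -0.24. Rrm1 did not pass the test at 0.03. Of the cyclin E and E2F genes, Ccne2 was at 19.9, 16.6 and 17.2 against 13.6, 14.1 and 14.7 CPM (log2 0.34 ± 0.093 (SE), adjusted p = 0.0019) and E2f8 at 14.7, 12.9 and 13.3 against 20.7, 24.2 and 17.6 CPM (log2 -0.63 ± 0.091 (SE), adjusted p = 7.3e-08), so that the groups stood apart in opposite directions. E2f8 had the largest fall of the 46. Under scaling by total counts Ccne2 stood at 0.19 and was not called.

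Of the 6 mitotic roles, 2 had genes called in both directions, cyclins with kinases and chromosomes with kinetochores, and 3 had genes called lower only. Aurka was at 51.3, 53.3 and 49.1 CPM with TGF-b1 against 41.5, 42.3 and 43.1 CPM in mock (log2 0.27 ± 0.053 (SE), adjusted p = 1.1e-05), while Ccnb2 was at 36.2, 29.6 and 34.2 against 49.5, 51.2 and 47.97 CPM (log2 -0.57 ± 0.061 (SE), adjusted p = 4.15e-11). At the kinetochore, Cenpe was at 86.1, 84.7 and 83.7 against 74.1, 69.8 and 67.8 CPM (log2 0.27 ± 0.039 (SE)) and Cenpf at 41.5, 41.9 and 43.5 against 60.99, 58.2 and 58.2 CPM (log2 -0.48 ± 0.048 (SE)), again in opposite directions and without overlap. Mki67 and Top2a changed by -0.37 and -0.43, both called lower. The checkpoint kinase Bub1b was at 38.04, 38.04 and 39.2 against 54.05, 56.5 and 52.9 CPM (log2 -0.51) and Cdc20 at 77.3, 82.7 and 81.99 against 90.2, 86.9 and 88.2 CPM (log2 -0.13), both lower, while Bub1 and Ube2c stood at -0.01 and 0.01 and were not called. Nusap1, at 24.4, 20.04 and 20.3 against 33.4, 30.6 and 32.6 CPM, had the largest fall of the mitotic genes (log2 -0.58 ± 0.07 (SE)), and Kif11 was at 49.7, 45.6 and 47.5 against 62.05, 58.4 and 61.2 CPM (log2 -0.34). Of the cytokinesis genes, Prc1, at 99.2, 102 and 97.96 against 112, 116 and 120.2 CPM (log2 -0.22), and Kif20a, at 102, 102 and 96.3 against 109, 107 and 106 CPM (log2 -0.10), were lower together with Racgap1. Foxm1 and Mybl2 were not called, at -0.03 and 0.10. The call of Kif20a was lost without TGF-b1 replicate 3, at -0.07. That of Cdk1 (log2 -0.09) was lost without TGF-b1 replicate 2 or 3, without mock replicate 1 or 2, and in the DESeq2 Wald test.

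The addition of SB431542 to TGF-b1 was compared with TGF-b1 alone, which asks what blocking the receptor kinase does in the presence of the cytokine. Among S-phase genes, 9 were called higher and 7 lower, and among mitotic genes 9 higher and 16 lower, where 41.4% of all genes tested were called higher and 38.3% lower. Shares called lower were 38.9% of S-phase and 57.1% of mitotic genes. Scaling by total counts put the median of all genes at 0.29 here, against 0.04 under TMM. It gave 11 higher and 4 lower for S-phase genes and 13 higher and 8 lower for mitotic genes, so the balance of directions over the mitotic genes turns with the scaling. This comparison shares the TGF-b1 libraries with the one above, so signs in the 2 comparisons are not independent.

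Tk1 had the largest rise, from 20.9, 24.7 and 20.2 CPM with TGF-b1 to 41.9, 38.6 and 39.04 CPM with SB431542 added, 1.83-fold (log2 0.87 ± 0.072 (SE), adjusted p = 8.66e-15). Rrm2 had the largest fall, from 178, 183 and 178 to 101, 94.8 and 102 CPM, 1.81-fold (log2 -0.86 ± 0.029 (SE), adjusted p = 6.92e-28). Both enzymes feed the same pool of DNA precursors, and their libraries stood apart in opposite directions. Rrm1 and Tyms fell with Rrm2, at -0.58 and -0.63, and Pcna rose, at 0.56. E2f8 went from 14.7, 12.9 and 13.3 to 20.1, 22.1 and 21.5 CPM (log2 0.64 ± 0.09 (SE)) and Ccne2 from 19.9, 16.6 and 17.2 to 12.1, 9.05 and 8.53 CPM (log2 -0.85 ± 0.1 (SE)). Cdt1 rose from 31.98, 28.02 and 32.3 to 40.9, 42.2 and 46.2 CPM (log2 0.48 ± 0.06 (SE)), as did Mcm3 to Mcm7 at 0.10 to 0.32, of which Mcm3 was not called by the DESeq2 Wald test. Gins2, from 27.03, 25.8 and 24.9 to 24.6, 21.1 and 22.9 CPM, was the lowest of the helicase genes at -0.18 (adjusted p = 0.0199), a call that was lost without TGF-b1 replicate 1 or SB431542 replicate 2 (-0.15 and -0.12) or with a mean of at least 5 CPM (-0.12), and a direction that turned to 0.08 under scaling by total counts.

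Of the mitotic genes, Aurka went from 51.3, 53.3 and 49.1 to 27.04, 29.9 and 28.5 CPM, 1.79-fold lower (log2 -0.84 ± 0.058 (SE), adjusted p = 5.78e-18), and Ccnb2 from 36.2, 29.6 and 34.2 to 42.7, 50.1 and 48.1 CPM (log2 0.49 ± 0.061 (SE)). Cenpe fell from 86.1, 84.7 and 83.7 to 53.8, 55.5 and 57.4 CPM (log2 -0.61) and Cenpf rose from 41.5, 41.9 and 43.5 to 63.3, 62.01 and 60.5 CPM (log2 0.55). Bub1b rose from 38.04, 38.04 and 39.2 to 45.2, 43.9 and 45.1 CPM (log2 0.22) and Cdc20 fell from 77.3, 82.7 and 81.99 to 59.9, 56.6 and 55.5 CPM (log2 -0.49). In each of these pairs the genes of 1 role went opposite ways. Nusap1 rose from 24.4, 20.04 and 20.3 to 32.96, 31.7 and 32.3 CPM (log2 0.59) and Tpx2, which activates Aurka on the spindle, fell from 133, 133 and 135 to 94.03, 94.97 and 97.4 CPM (log2 -0.49). The cytokinesis genes had none called higher and 3 lower, Ect2 from 61.7, 63.2 and 60.9 to 36.6, 41.8 and 39.6 CPM (log2 -0.65 ± 0.051 (SE)), Kif20a from 102, 102 and 96.3 to 79.5, 74.96 and 81.5 CPM (log2 -0.35) and Anln at -0.50. Mybl2 and Foxm1 were both lower, at 17.8, 15.6 and 17.1 and 64.8, 62.7 and 63.3 CPM from 19.1, 22.5 and 22.1 and 74.2, 72.97 and 72.9 CPM (log2 -0.34 and -0.20), though under scaling by total counts Foxm1 stood at 0.05 and Mybl2 at -0.08, the latter not called.

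**Figure D5:**
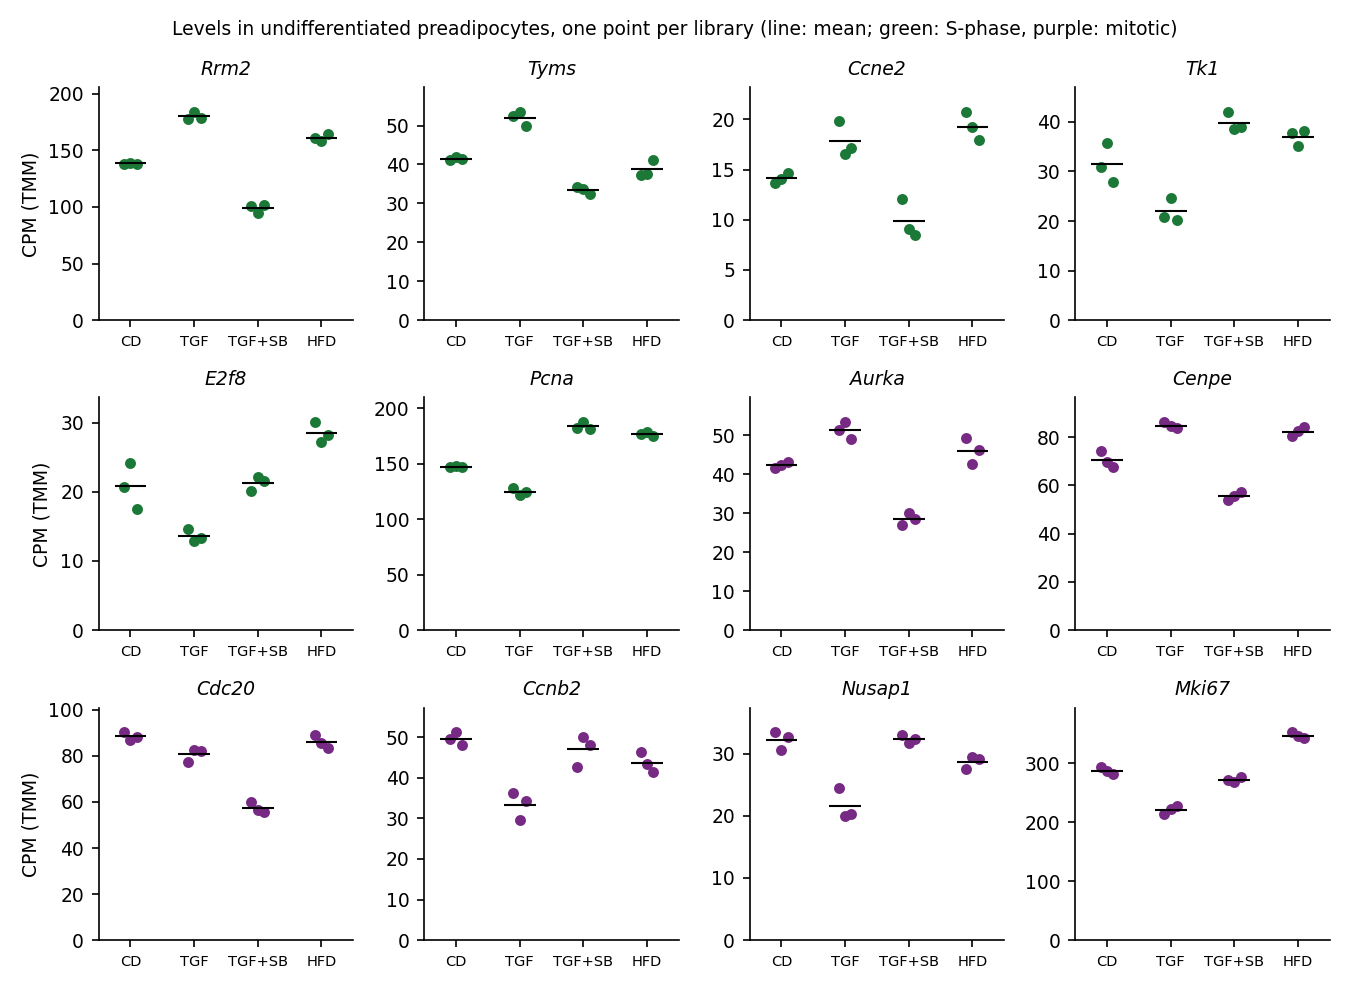
TMM-scaled CPM (y axis, from 0) of 12 of the genes in the 4 undifferentiated groups (x axis: CD mock, TGF-b1, TGF-b1 with SB431542, HFD mock), with 1 point per library and a line at the mean. Rrm2, Tyms, Ccne2, Aurka and Cenpe are higher with TGF-b1 than in mock and lowest with SB431542 added, whereas Tk1, E2f8, Pcna, Ccnb2, Nusap1 and Mki67 are lowest with TGF-b1.

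Against mock, cells with TGF-b1 and SB431542 had no mitotic gene called higher and 23 of 28 called lower, with a median log2 change of -0.26, where 30.6% of all genes tested were called higher and 30.4% lower. This is 82.1% of the mitotic genes. Scaling by total counts, with the median of all genes at 0.12 against 0.006 under TMM, gave 1 mitotic gene higher and 17 lower. The same 17 were lower under all 3 scalings. The other 6 were not called lower under total counts, with Mki67 at 0.03, Top2a at -0.01, Ccna2 at -0.02, Bub1 at -0.05, Kif11 at -0.05 and Mybl2 at -0.12, and with a mean of at least 5 CPM the calls of Mki67, Bub1 and Mybl2 were lost. Of the S-phase genes, 4 were called higher and 6 lower (7 and 4 with total counts). These libraries are those of the earlier comparisons, so the values below are not independent of them. Cdc20 was at 59.9, 56.6 and 55.5 CPM against 90.2, 86.9 and 88.2 CPM in mock (log2 -0.62 ± 0.041 (SE), adjusted p = 3.92e-18), the largest fall, and Bub1 at 31.3, 28.9 and 30.8 against 32.8, 35.7 and 32.6 CPM (log2 -0.16), a call lost without mock replicate 2 or SB431542 replicate 2 (-0.11 and -0.12). Aurka was at 27.04, 29.9 and 28.5 against 41.5, 42.3 and 43.1 CPM (log2 -0.57 ± 0.06 (SE)) and Ccna2 at 101, 97.3 and 97.4 against 105, 108 and 109.8 CPM (log2 -0.13).

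Ect2, at 36.6, 41.8 and 39.6 against 60.5, 56.2 and 58 CPM (log2 -0.56 ± 0.052 (SE)), Prc1, at 93.96, 96.95 and 94.8 against 112, 116 and 120.2 CPM (log2 -0.29), and Tpx2, at 94.03, 94.97 and 97.4 against 129.5, 133 and 131 CPM (log2 -0.46), were all below mock without overlap. Kif11 was at 53.9, 55.5 and 52.7 against 62.05, 58.4 and 61.2 CPM (log2 -0.16), Cenpe at 53.8, 55.5 and 57.4 against 74.1, 69.8 and 67.8 CPM (log2 -0.34) and Mki67 at 271, 269 and 277 against 294, 287 and 282 CPM (log2 -0.08). Foxm1 was at 64.8, 62.7 and 63.3 against 71.2, 77.3 and 76.2 CPM (log2 -0.24), and Mybl2 at 17.8, 15.6 and 17.1 against 22.5, 20.2 and 16.7 CPM, where the libraries overlapped (log2 -0.23, adjusted p = 0.0273). The Mybl2 call was lost without SB431542 replicate 2 (-0.18) and without mock replicate 1 or 2 (-0.14 and -0.22).

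Both reductase subunits were below mock with TGF-b1 and SB431542, Rrm1 at 207, 202 and 196 against 292, 289.7 and 305 CPM (log2 -0.55 ± 0.022 (SE), adjusted p = 1.21e-22) and Rrm2 at -0.48, as was Tyms at -0.31. Tk1 was above mock, at 41.9, 38.6 and 39.04 against 30.9, 35.7 and 27.9 CPM (log2 0.33 ± 0.065 (SE), adjusted p = 3.1e-05), as was Pcna at 0.32. Ccne2 was at 12.1, 9.05 and 8.53 against 13.6, 14.1 and 14.7 CPM (log2 -0.51) and E2f1 at 42.3, 45.7 and 43.6 against 42.01, 37.1 and 36.8 CPM (log2 0.19). Among helicase genes, Mcm6 was at 129, 123 and 128 against 112, 115 and 113 CPM (log2 0.16) and Mcm2 at 83, 79.8 and 82.4 against 91.9, 86.1 and 87.6 CPM (log2 -0.11), without overlap in TMM-scaled CPM. Under scaling by total counts Mcm2 stood at -0.0037 and was no longer called. E2f8, Cdt1 and Nusap1, which were low with TGF-b1 alone, stood at 0.01, 0.01 and 0.01 against mock and were not called.

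In preadipocytes of mice on HFD, 10 S-phase genes were called higher and 1 lower against CD, and 12 mitotic genes higher and 3 lower, where 27.1% of all genes tested were called higher and 26.6% lower. The genes called higher were 55.6% of the S-phase and 42.9% of the mitotic genes. Median log2 changes were 0.15 and 0.05. Under scaling by total counts the median of all genes was -0.091, against -0.008 under TMM. The counts were then 6 and 4 for S-phase genes and 3 and 7 for mitotic genes, so the direction over the mitotic genes turns with the scaling. Called under all 3 scalings were Pcna, Rrm2, Cdc6, Ccne2, E2f1, E2f8, Mki67, Bub1 and Cenpe as higher, and Mcm7, Ccnb2, Nusap1 and Ect2 as lower. Because total counts shifted log2 changes downward, the calls of lower genes were hardly put at risk by that scaling. The other 13 calls of higher genes were lost or turned under total counts, and of the genes called under all 3 scalings, Cdc6, Ccne2, E2f8, Bub1, Ccnb2 and Nusap1 lost their call when only the most abundant transcript was counted. The CD mock libraries are those of the TGF-b1 comparisons.

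Of the 4 cyclin E and E2F genes, 3 were called higher with diet, and these had the 3 largest changes of the 46, while Ccne1 was not called at 0.15. E2f1 was at 54.9, 56.1 and 57.05 CPM on HFD and 42.01, 37.1 and 36.8 CPM on CD, 1.46-fold higher (log2 0.54 ± 0.052 (SE), adjusted p = 7.1e-13), and E2f8 at 30.02, 27.1 and 28.1 against 20.7, 24.2 and 17.6 CPM (log2 0.44 ± 0.076 (SE), adjusted p = 4.22e-06). The groups stood apart in both, and Ccne2 rose by 0.45. Pcna was at 177, 179 and 175 against 147, 148 and 147 CPM (log2 0.26 ± 0.026 (SE)) and Rrm2 at 161, 158 and 164 against 138, 139 and 138 CPM (log2 0.22 ± 0.028 (SE)). Cdc6 was at 23.7, 23.4 and 24.5 against 20.6, 18.9 and 18.2 CPM (log2 0.32 ± 0.072 (SE)), whereas Mcm7 was at 81.8, 81.7 and 80.5 against 92.5, 90.9 and 84.6 CPM (log2 -0.14 ± 0.037 (SE)), so a loader and a subunit of the same ring went opposite ways.

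Mki67 was at 352, 346 and 343 CPM on HFD and 294, 287 and 282 CPM on CD (log2 0.27 ± 0.02 (SE), adjusted p = 9.48e-14), and Top2a at 263, 262 and 257 against 246, 249 and 255 CPM, a change of 0.06 that turned to -0.02 under scaling by total counts and whose call was lost without CD replicate 1 or 2 or HFD replicate 1 or 2 (0.05, 0.06, 0.05 and 0.06). Bub1 was at 40.05, 43.6 and 39.98 against 32.8, 35.7 and 32.6 CPM (log2 0.28 ± 0.057 (SE)), without overlap, and Ube2c at 68.9, 68.97 and 59.9 against 56.5, 62.9 and 58.2 CPM (log2 0.15), with overlap between the groups. The Ube2c call was lost without CD replicate 1 or HFD replicate 1 or 2, at 0.11 each. Plk1 was at 85.1, 82.4 and 87.3 against 74.5, 77.4 and 77.8 CPM (log2 0.15) and Ccnb2 at 46.3, 43.4 and 41.3 against 49.5, 51.2 and 47.97 CPM (log2 -0.18), the latter call lost without HFD replicate 3 (-0.14). Tpx2 was at 146, 133 and 143 against 129.5, 133 and 131 CPM (log2 0.11) and Nusap1 at 27.5, 29.5 and 29.1 against 33.4, 30.6 and 32.6 CPM (log2 -0.16), the latter call lost without CD replicate 1 or 3 or HFD replicate 1 (-0.14, -0.15 and -0.13) and in the DESeq2 Wald test. Prc1 was at 126, 128 and 122 against 112, 116 and 120.2 CPM (log2 0.11) and Ect2 at 50.4, 47.8 and 53.8 against 60.5, 56.2 and 58 CPM (log2 -0.20 ± 0.049 (SE)). Foxm1 was at 85.9, 84.9 and 81.1 against 71.2, 77.3 and 76.2 CPM (log2 0.16) and Mybl2 at 25.8, 23.9 and 20.5 against 22.5, 20.2 and 16.7 CPM (log2 0.24), where libraries overlapped and the call was lost without CD replicate 3 or HFD replicate 1 or 2 (0.14, 0.16 and 0.22).

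Markers of other cell types differed between the undifferentiated groups. Macrophage markers, of which all 12 passed the filter and none was at 0, summed to 567.8 to 582.8 CPM of the column total in CD mock, 574.6 to 588.2 with TGF-b1, 1211 to 1237 with SB431542 added and 2536 to 2561 in HFD mock, where all 12 were called higher than in CD mock. Mesothelial markers, all 10 passing the filter and none at 0, summed to 2591 to 2621, 636.5 to 650.5, 2529 to 2537 and 633.9 to 645.2 CPM in the same order. Adipocyte markers, of which Lep was at 0 throughout and Retn with TGF-b1, summed to 1466 to 1494, 241.1 to 251.7, 4336 to 4384 and 1046 to 1060 CPM. Endothelial markers, all 9 passing the filter and none at 0, summed to 394.2 to 412.3, 163.5 to 167.6, 886.8 to 905.5 and 120.4 to 128.6 CPM. Pericyte and smooth muscle markers, all 8 passing the filter and none at 0, summed to 593 to 608.6, 652 to 653.1, 954.5 to 982.6 and 539.9 to 556.1 CPM. The 12 preadipocyte and fibroblast markers summed to 18860 to 18960, 22440 to 22580, 9710 to 9788 and 22210 to 22290 CPM. With TGF-b1 against mock, 3 of these 12 were called higher and 9 lower with a median log2 change of -1.45, opposite in sign to their sum. For SB431542 against TGF-b1, 9 were higher and 3 lower, and the median of 1.71 was again opposite to the sum. With HFD, 4 were higher and 8 lower. The part of these cells in the changes of the S-phase and mitotic genes was not tested.

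Ccnd1, the cyclin that starts the release of E2F ahead of S phase, had a larger log2 change than any of the 46 genes in each of the 4 comparisons of undifferentiated cells. It was at 50.1 ± 2.3 CPM in mock, 16.9 ± 1.7 with TGF-b1, 155 ± 3.4 with SB431542 added and 109 ± 2.3 in HFD mock (SD, n = 3). Its log2 changes were -1.57 with TGF-b1, 3.204 for SB431542 against TGF-b1, 1.63 for SB431542 against mock and 1.13 with HFD, each at an adjusted p of 2.66e-25 or lower. Cdkn2b, the CDK4 inhibitor p15, was at 19.1 ± 0.72 CPM in mock, 38.2 ± 0.54 with TGF-b1, 14.3 ± 1.6 with SB431542 added and 14.97 ± 0.71 in HFD mock. Cdkn1a, p21, was at 158 ± 2.9, 262 ± 3.7, 148 ± 2.3 and 222 ± 5.2 CPM in the same order. With TGF-b1 against mock, Cdkn2b, Cdkn1a and Cdkn2a rose by 1.01, 0.73 and 0.46, and Cdkn1b changed by -0.33. Of the 14 genes of that list, 6 were called higher and 6 lower with TGF-b1, 5 and 8 for SB431542 against TGF-b1, 7 and 5 for SB431542 against mock, with Cdkn1c lowest at -0.98, and 6 and 4 with HFD, with Cdk4 lowest at -0.37. In percent, these were 42.9 and 42.9, 35.7 and 57.1, 50 and 35.7, and 42.9 and 28.6. Over all genes tested, the percentages were 33.4 and 34.2, 41.4 and 38.3, 30.6 and 30.4, and 27.1 and 26.6.

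The further lists were counted under TMM only. Over all genes tested, 33.4% were called higher and 34.2% lower with TGF-b1, and 41.4% and 38.3% for SB431542 against TGF-b1. For SB431542 against mock these shares were 30.6% and 30.4%, and with HFD 27.1% and 26.6%. The 60 further mitotic genes had 4 called higher and 24 lower with TGF-b1, between Gtse1 at 0.29 and Cenpm at -0.55. For SB431542 against TGF-b1 they had 14 and 25, with Cenpm at 0.68 and Gtse1 at -0.78, for SB431542 against mock 3 and 38, with Pttg1 (securin) at 0.60 and Cep55 at -0.53, and with HFD 18 and 5, with Kntc1 at 0.46 and Lmnb1 at -0.31. In percent of these genes, the 4 comparisons gave 6.67 and 40, 23.3 and 41.7, 5 and 63.3, and 30 and 8.33. The 50 further replication genes had 7 higher and 16 lower, 18 and 16, 8 and 12, and 14 and 5 in the same 4 comparisons. In percent, these were 14 and 32, 36 and 32, 16 and 24, and 28 and 10. Rpa1, which binds single-stranded DNA, rose by 0.67 with TGF-b1 and changed by -1.12 for SB431542 against TGF-b1, and the chromatin assembly gene Chaf1b changed by -0.71 with TGF-b1 and -0.39 with HFD. Asf1b, another histone chaperone, changed by 0.64 and 0.44 with SB431542 against TGF-b1 and mock, the kinase activator Dbf4 by -0.59 against mock, and Clspn by 0.49 with HFD. The 16 E2F, pocket and DREAM or MuvB genes had 3 higher and 7 lower, 7 and 7, 4 and 6, and 6 and 3. Their percentages were 18.8 and 43.8, 43.8 and 43.8, 25 and 37.5, and 37.5 and 18.8. E2f2 was at 5.85 ± 0.77 CPM in mock, 3.89 ± 0.76 with TGF-b1, 8.42 ± 0.95 with SB431542 added and 10.7 ± 0.9 in HFD mock, with log2 changes of -0.62, 1.13, 0.51 and 0.86 in the 4 comparisons. E2f7 rose by 0.45 with TGF-b1, E2f3 changed by -0.48 and -0.38 with SB431542 against TGF-b1 and mock, and Tfdp2, a partner of E2F, by -0.64 with HFD.

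How reads were counted bears on single genes. Exons of 13 of the 46 genes overlap those of a gene on the opposite strand in the GENCODE annotation, 11 of them a protein-coding one, among them Tk1 with Afmid, Cdc20 with Elovl1, Mcm7 with Ap4m1 and Cops6, Nusap1 with Oip5 and Ube2c with Tnnc2. Use of strand in counting is not stated in the sources used here, so reads of such partners may be mixed. Ccnb1, Ccnb2, Kif4, Pcna and Tyms have a named pseudogene copy that can share reads with them. With only the most abundant transcript of each gene counted, calls with TGF-b1 were lost for Tyms, Tk1, Ccne2, E2f1, E2f8, Aurka and Prc1, at log2 changes of 0.48, -0.44, 0.50, 0.13, -0.38, 0.10 and -0.39. For SB431542 against TGF-b1 the calls of Gins2, Ccne1, E2f8 and Bub1 were lost, and against mock those of Tyms, Tk1, Bub1, Prc1 and Mybl2. With HFD, calls were lost for Mcm5, Tk1, Cdc6, Ccne2, E2f8 and Top2a, at 0.08, 0.34, 0.31, 0.24, 0.30 and 0.05, and for Ccnb2, Bub1, Ube2c, Birc5, Nusap1 and Mybl2, at -0.19, 0.28, 0.15, 0.11, -0.06 and 0.24. Aurka and Prc1 changed sign with HFD, to -0.05 and -0.15. In undifferentiated cells the most abundant transcript held 81.2% of the counts of Aurka but 22.9% of those of Prc1. For Prc1 this setting therefore leaves out most of the counts. How reads that match several transcripts were counted is not stated in the sources used here.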

How the data were processed

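Poly(A) RNA of 18 libraries was sequenced, and fastp, STAR, featureCounts and build mm10 are named in the submitters' processing notes, without versions. The deposited tables hold the authors' estimated counts (expected count values) per RefSeq transcript, not scaled to library size, with 17001 and 15482 gene symbols. Strandedness, the division of reads between transcripts and the filter on low transcripts are not stated in the sources used here. Values were summed by gene symbol and rounded (Python 3.11.15, pandas 2.3.3). Totals per library ranged from 11154426 to 17288580 counts, which sets the sampling error of each gene. A model with a term per group covered the 12 undifferentiated libraries and another the 6 differentiated ones, with edgeR 4.0.16 in R 4.3.3 (filterByExpr at its defaults, TMM, glmQLFit and glmQLFTest), on 14078 and 13468 genes. Benjamini-Hochberg adjustment covered all genes tested, with calls under 0.05. For standard errors the dispersion had a floor of 1e-04, and the fit was tested on simulated counts. Summed levels over both tables use plain CPM.

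Groups follow the labels for treatment, diet and sort. The members and lists were chosen with earlier results of these data known. Members with values in every library are those with the highest and the lowest called change of their role in a comparison. From each further list the called genes with the largest change up and down are named, with Ccnd1, Cdkn1a, Cdkn1b, Cdkn2a and Cdkn2b. Alternatives were scaling by total counts or DESeq2 size factors, the DESeq2 1.42.0 Wald test, no filter, a mean of at least 5 CPM, a 2-fold minimum, the most abundant transcript per symbol, only the groups compared, a replicate block, and each replicate left out. Gene overlaps were read from GENCODE, and promoters from RefSeq (GRCm38.p6). Figures were drawn with matplotlib 3.10.9.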

Additional observations from a re-analysis of the deposited data

How the results depend on the processing

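In Itga5-High against Itga5-Low 18 and 28 genes were called higher and 0 lower in every alternative except 3: the most abundant transcript per symbol lost Ccne2 and Ect2, leaving out Itga5-High replicate 1 lost Ccne2 (17 S-phase genes), and the 2-fold minimum left 2 S-phase genes. In the 4 undifferentiated comparisons 0 genes were left at 2-fold. With total counts, S-phase genes called higher numbered 2 (TGF-b1 against mock), 7 (SB431542 against mock) and 6 (HFD), and lower 4 (SB431542 against TGF-b1) and 4 (HFD); mitotic genes called higher numbered 1 (SB431542 against mock) and 3 (HFD), and lower 23, 8 and 7 (TGF-b1, SB431542 against TGF-b1, HFD). With the most abundant transcript, 1 S-phase and 1 mitotic gene were higher with TGF-b1, and 5 and 5 higher and 1 mitotic gene lower with HFD. With at least 5 CPM, 4 S-phase genes were lower for SB431542 against TGF-b1, 1 mitotic gene was higher for SB431542 against mock, and 2 S-phase genes were lower with HFD. Without single replicates, S-phase genes lower with HFD numbered 1 to 2 (2 without CD replicate 2 or HFD replicate 3). The cause was not tested.

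Total counts turned the sign of Rrm1 (-0.11), Plk1 (-0.091), Ube2c (-0.13), Tpx2 (-0.12) and Anln (-0.11) with TGF-b1, of Mcm2 (0.16), Gins2 (0.082), Ccne1 (0.049), Ccnb1 (0.0203), Cdk1 (0.13), Bub1 (0.11), Birc5 (0.0701), Prc1 (0.19), Racgap1 (0.19) and Foxm1 (0.053) for SB431542 against TGF-b1, of Mcm7 (0.013) and Mki67 (0.032) against mock, and of Top2a (-0.024) with HFD; the most abundant transcript turned Aurka (-0.046) and Prc1 (-0.15) with HFD.

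Deviations of same-numbered replicates had correlations of -0.0217 to 0.0109 in undifferentiated and -0.0218 to 0.0242 in differentiated cells. Replicates with different numbers had -0.0249 to 0.029 and -0.0369 to 0.0148. Replicates varied little beyond sampling, so these values cannot show whether the numbers pair libraries. A replicate block gave 16 mitotic genes lower with TGF-b1, 7 S-phase genes lower for SB431542 against mock and 13 mitotic genes higher with HFD, and 18 and 28 higher in Itga5-High. Depth limited Ccne2, with 65 counts in its lowest library.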
